A study of Mus musculus with 5 samples.

Results

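The genes described here store iron, carry it across membranes, sense it and break down heme. The set held 10 genes, chosen by their symbols from the 55487 genes of the count table, and all 10 had a row. *Fth1* and *Ftl1* encode the ferritin subunits that store iron, and *Ncoa4* encodes the receptor that delivers ferritin to the lysosome. *Tfrc*, *Slc11a1*, *Slc11a2* and *Slc40a1* encode a receptor and 3 transporters. *Ireb2* encodes an iron sensor, and *Hmox1* and *Blvrb* encode enzymes of heme breakdown. Their transcript levels were compared between macrophages with and without deletion of *Zeb1*, which encodes a transcription factor.

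RNAseq was performed on macrophages sorted from the aorta of male mice as viable cells positive for CD45, a marker of all leukocytes, and for F4/80, a surface protein of macrophages. The labels and the isolation protocol name the whole aorta, while the sequencing methods name the aortic sinus, and the isolation protocol adds the myeloid marker CD11b to the sort. The control group, Zeb1WT/ApoeKO, carried a floxed *Zeb1* allele without Cre and had 2 libraries, here WT replicates 1 and 2. The deletion group, Zeb1∆M/ApoeKO, carried the same floxed allele with Cre under the control of *Lyz2* (LysM-Cre), which acts in myeloid cells in general, neutrophils included, and had 3 libraries, here ∆M replicates 1 to 3. Both groups also lacked *Apoe*, the apolipoprotein that clears remnant lipoproteins from blood, and both were fed Chow during 8 weeks and the Western diet during the next 10. Macrophages of 3 mice were mixed per genotype and condition. As no label ties a library to its own mice, the p-values below measure only the spread between these libraries, which may be technical.

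Iron is held in cells inside ferritin, a hollow shell of heavy (*Fth1*) and light (*Ftl1*) subunits. When iron is scarce, iron regulatory proteins bind a hairpin in messenger RNAs, the iron-responsive element. In the 5′ untranslated region (UTR) this hairpin blocks translation of ferritin and ferroportin (*Slc40a1*), and in the 3′ UTR it protects the mRNA of the transferrin receptor (*Tfrc*) from decay. Macrophages take up old red blood cells, open their heme with heme oxygenase 1 (*Hmox1*), store the iron in ferritin and return it to plasma through ferroportin. In the plaque, red cells that leak from fragile vessels are a further source of heme. Because ferritin is controlled largely at translation, its mRNA level is not its protein level.

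The hairpins are shown because they join the storage, export and uptake genes of the set under a shared control. Transcripts were searched, in the sense direction only, for the 6-base loop CAGTGN between arms of 5 paired bases (G-U pairs allowed) with an unpaired C just before the 5′ arm. The search found 7 hairpins in 4 of the 10 genes: 1 each in the 5′ UTR of *Fth1*, *Ftl1* and *Slc40a1* and 4 in the 3′ UTR of *Tfrc*. Hairpins with another loop, or with a mismatch or bulge in the 5 pairs, were not searched for. A gene may therefore carry an element, or a further one, that is not listed here. A match lay in the 5′ UTR of 28 of the 20890 genes with an annotated 5′ UTR (0.134%) and in the 3′ UTR of 127 of 21691 genes (0.585%). Each hairpin is printed from the annotated transcript, 5′ to 3′ on the strand of its gene, with its GRCm38 position and with the loop in capitals.
*Fth1*, 5′ UTR, chr19:9982731-9982760, plus strand: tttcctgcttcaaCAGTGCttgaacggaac
*Ftl1*, 5′ UTR, chr7:45459779-45459808, minus strand: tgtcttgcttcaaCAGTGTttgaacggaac
*Slc40a1*, 5′ UTR, chr1:45925465-45925494, minus strand: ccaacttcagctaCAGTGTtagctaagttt
*Tfrc*, 3′ UTR, chr16:32631218-32631247, plus strand: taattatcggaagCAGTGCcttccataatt
*Tfrc*, 3′ UTR, chr16:32631597-32631626, plus strand: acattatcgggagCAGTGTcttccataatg
*Tfrc*, 3′ UTR, chr16:32631662-32631691, plus strand: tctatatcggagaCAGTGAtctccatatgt
*Tfrc*, 3′ UTR, chr16:32631709-32631738, plus strand: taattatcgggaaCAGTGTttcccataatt

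The libraries held 20118545 to 50649912 counts, so that 3 counts, the floor used here, corresponded to 0.0592 to 0.149 CPM (a gene's counts relative to the library total). The floor and the interval given below account for counting error alone, because copies made by PCR do not each stand for a separate molecule. *Zeb1*, the targeted gene, had 22 counts in ∆M replicate 1 and 0 counts in each of the other 4 libraries, so the counts did not check the genotype labels. *Lyz2*, a macrophage gene that also drives the Cre, had 161607 to 869804 counts, and *Apoe* had 0 to 86 counts. The 10 macrophage markers summed to 32770.2 to 35180.4 CPM in the WT libraries and 16066.6 to 35824.1 CPM in the ∆M libraries, and 7 to 9 of them exceeded 3 counts in each library. Most of the sum was *Lyz2*, except in ∆M replicate 1, where the lysosomal protease *Ctss* had 228337 counts and *Cd68* and *Cd14* had 10 and 33. ∆M replicate 1 stood apart from the other 4 libraries. It had the lowest macrophage sum, 20919 genes with at least 1 count against 7395 to 10689 in the others, and 91.8% of its detected genes had only 1 to 50 counts. It also held the red cell transcripts: *Hba-a1* had 60292 counts, *Hba-a2* 133027 and *Hbb-bs* 2363 there, while *Alas2* and *Hbb-bt* had 0 counts in every library. The erythroid sum was 8029.1 CPM in that library and 0 to 3.73 CPM elsewhere. T cell markers summed to 10.8 and 5300.4 CPM in the WT libraries and to 1.15 to 1419.0 CPM in the ∆M libraries. Neutrophil markers summed to 3148.7 and 658.5 CPM in the WT libraries and to 39.5 to 1359.7 CPM in the ∆M libraries, nearly all from *S100a8* and *S100a9*, while *Ngp*, *Camp*, *Mpo* and *Elane* had 0 counts in every library. Because the samples were bulk RNA, fewer cells of a type and less RNA per cell cannot be told apart.

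Ferritin mRNA dominated the set. *Ftl1* (chr7:45457944-45459884, minus strand) had 393894 and 828856 counts in WT replicates 1 and 2 and 580038, 872898 and 1247821 counts in ∆M replicates 1, 2 and 3. Scaled to total counts, these were 19578.7 and 23958.1 CPM in the WT libraries and 23799.1, 24401.9 and 24636.2 CPM in the ∆M libraries. WT replicate 1 was the lowest and the other 4 lay close together, so that the groups overlapped. The mean was 21768.4 ± 3096.7 CPM (SD, n = 2) for Zeb1WT/ApoeKO and 24279.1 ± 431.8 CPM (SD, n = 3) for Zeb1∆M/ApoeKO (two-sided exact permutation test, p = 0.2, where the smallest possible p is 0.1). The highest of the 5 libraries exceeded the lowest by 1.26 times. Among the 299 genes with at least 100 counts in every library, the coefficient of variation of *Ftl1* over the 5 libraries was 8.99%, and only *Malat1*, a nuclear noncoding RNA, and *Pfn1*, which encodes the actin-binding protein profilin, had a lower one. The median over the 299 genes was 86.5%.

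This evenness belonged to the total-count scale. TMM normalization, which sets each library by the bulk of its genes, gave ∆M replicate 1 a factor of 0.515 and the other libraries factors of 1.03 to 1.42. On the TMM scale *Ftl1* was at 14261.5 and 24051.7 CPM in the WT libraries and at 47863.2, 20410.0 and 24836.4 CPM in ∆M replicates 1, 2 and 3. ∆M replicate 1 was then the highest library, the coefficient of variation was 48.6%, and 26 of the 299 genes had a lower one. Zeb1WT/ApoeKO averaged 19156.6 ± 6922.7 CPM (SD, n = 2) and Zeb1∆M/ApoeKO 31036.6 ± 14739.4 CPM (SD, n = 3) (two-sided exact permutation test, p = 0.4).

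*Fth1* (chr19:9980598-9985098, plus strand) varied more than *Ftl1* on the total-count scale, with a coefficient of variation of 43.4%, and less on the TMM scale, with 34.3%. It had 94946 and 251413 counts in the WT libraries and 47008, 285607 and 385254 counts in ∆M replicates 1, 2 and 3. Per total counts it was at 4719.3 and 7267.1 CPM in the WT libraries and at 1928.7, 7984.1 and 7606.2 CPM in the ∆M libraries. The ∆M libraries included both the lowest and the highest value, and the highest was 4.14 times the lowest. The mean was 5993.2 ± 1801.5 CPM (SD, n = 2) for Zeb1WT/ApoeKO and 5839.7 ± 3392.3 CPM (SD, n = 3) for Zeb1∆M/ApoeKO (two-sided exact permutation test, p = 1). Without ∆M replicate 1 the ∆M mean was 7795.2 CPM. On the TMM scale Zeb1WT/ApoeKO averaged 5366.6 ± 2727.9 CPM (SD, n = 2) and Zeb1∆M/ApoeKO 6075.0 ± 1965.2 CPM (SD, n = 3) (p = 0.6, same exact permutation test), so the order of the groups for *Fth1* depended on the scaling.

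The ratio of *Fth1* to *Ftl1* counts does not depend on any scaling between libraries. It was 0.241 and 0.303 in the WT libraries and 0.081, 0.327 and 0.309 in ∆M replicates 1, 2 and 3. Of the 5 libraries, 4 lay between 0.241 and 0.327, and ∆M replicate 1 was below all of them. The means were 0.272 ± 0.044 (SD, n = 2) and 0.239 ± 0.137 (SD, n = 3) (two-sided exact permutation test, p = 1), and the ∆M mean without replicate 1 was 0.318. The library with the low ratio was the one with the hemoglobin counts, the lowest macrophage marker sum and the many genes at low counts described above, and their part in the ratio was not tested. Together the 2 ferritin genes took 2.43% and 3.12% of all counts in the WT libraries and 2.57%, 3.24% and 3.22% in the ∆M libraries.

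**Figure D1:**
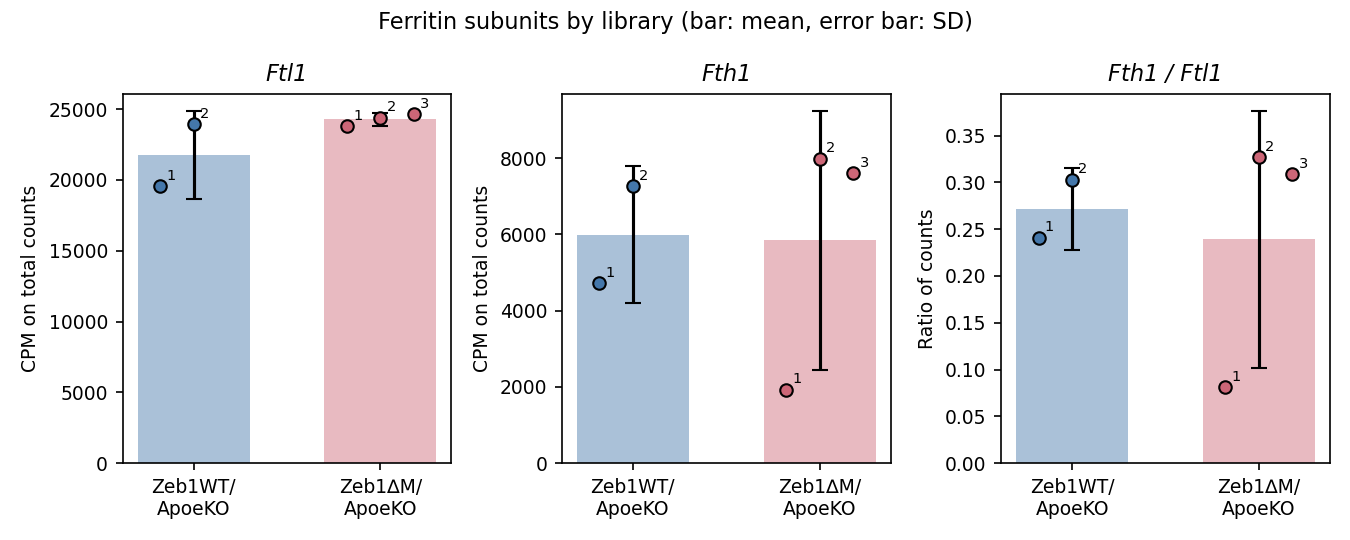
Ferritin subunit mRNA in each library: CPM on total counts of *Ftl1* and *Fth1*, and the ratio of their counts. Points are libraries with their replicate number, bars are group means and error bars are SD (n = 2 for Zeb1WT/ApoeKO, n = 3 for Zeb1∆M/ApoeKO). *Ftl1* lies between 19578.7 and 24636.2 CPM in all 5 libraries, whereas *Fth1* and the ratio are lowest in ∆M replicate 1, at 1928.7 CPM and 0.081.

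Rows of near-identical sequence could take ferritin reads. *Ftl1-ps1*, which the annotation gives as protein-coding and whose transcript aligned to that of *Ftl1* at 99.6% identity, had 5375 and 13290 counts in the WT libraries and 8443, 11650 and 18618 counts in the ∆M libraries. These were 1.33% to 1.6% of the *Ftl1* counts of the same library. The split of reads between the gene and its copy came from the quantification, and its error was not tested. All 19 rows that aligned to *Ftl1* summed to 1.34% to 1.61% of its counts, and the 3 that aligned to *Fth1* summed to 0.00527% to 0.0149%. Further ferritin relatives stayed low: *Ftl2-ps* had 4 to 8 counts, *Fthl17b* had 11 counts in ∆M replicate 1 only, and *Fthl17-ps1* had 5 counts in ∆M replicate 3 only. *Ftl1* also shares 355 exon bases with *Gm10252* on the opposite strand, which had 10 to 370 counts, and 109 exon bases with the microRNA gene *Gm22133* on its own strand, which had at most 5 counts. The library kit was not stated to keep strand, so reads in the shared bases cannot be assigned, but the counts of both overlapping genes were small beside those of *Ftl1*.

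*Ncoa4* (chr14:32159865-32179855, plus strand), the receptor that brings ferritin to the lysosome for iron release, was scarce. It had 106 and 498 counts in the WT libraries and 14, 0 and 123 counts in ∆M replicates 1, 2 and 3. On the TMM scale these were 3.84 and 14.5 CPM against 1.16, 0 and 2.45 CPM. Both WT libraries lay above all 3 ∆M libraries. The fitted log2 fold change, ∆M over WT, was −2.92 ± 3.997 (SE), and the adjusted p of edgeR's quasi-likelihood test was 1. The two-sided exact permutation test gave p = 0.2. In the edgeR fits that left out 1 library each, the log2 fold change ran from −3.76 to −1.82.

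Transcripts of the iron uptake proteins were at or near the floor. *Tfrc* (chr16:32608920-32632794, plus strand), the receptor for iron-loaded transferrin, had 15 counts in ∆M replicate 1 and 0 counts in the other 4 libraries. *Slc11a2* (chr15:100387898-100425072, minus strand), the divalent metal transporter of endosomes, had 16 counts in ∆M replicate 1 and 0 counts elsewhere. *Slc11a2* shares 402 exon bases with *Gm5475* on the opposite strand, which had 13 counts in WT replicate 1 and 7 in ∆M replicate 1. The library that held all *Tfrc* and *Slc11a2* counts was the one in which 29.6% of all genes exceeded 3 counts, against 9.03% to 12.5% in the others. Both genes failed the filter on low counts and were not tested. Their absence elsewhere means only that they were not detected above 0.0592 to 0.149 CPM.

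*Slc11a1* (chr1:74375195-74386062, plus strand) encodes NRAMP1, the metal transporter of the macrophage phagosome. It had 0 and 1 count in the WT libraries and 0, 36704 and 6935 counts in ∆M replicates 1, 2 and 3, or 0, 858.2 and 138.0 CPM on the TMM scale. High counts thus stood in ∆M replicates 2 and 3 only, while ∆M replicate 1 was at 0 like WT replicate 1, so the groups overlapped. The ∆M mean was 20616 times the single WT count taken over both WT libraries pooled (TMM scale), with a 95% counting interval of 3700 to 814284. It rests on that 1 count and mainly on ∆M replicate 2, which held 84.1% of all *Slc11a1* counts. The log2 fold change was 14.12 ± 7.35 (SE), with p = 0.0546 before and 1 after adjustment in edgeR's quasi-likelihood test over all genes (two-sided exact permutation test, p = 0.4). Over the edgeR alternatives that tested it, its unadjusted p ran from 0.0126 (without ∆M replicate 1, which leaves out the ∆M library at 0) to 0.252 (replicate block), and the adjusted p was at least 0.655 in each of them.

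*Slc40a1* (chr1:45908068-45926523, minus strand) encodes ferroportin, the iron exporter. It had 1 and 13100 counts in the WT libraries and 30, 4 and 0 counts in ∆M replicates 1, 2 and 3. On the TMM scale WT replicate 2 was at 380.1 CPM and the other 4 libraries were at 0 to 2.48 CPM. WT replicate 1 lay below ∆M replicates 1 and 2, so the groups overlapped. The log2 fold change was −7.80 ± 5.87 (SE; edgeR, adjusted p = 1; two-sided exact permutation test, p = 0.6), and without WT replicate 2 it was 3.83. WT replicate 2 was also the library with the highest T cell marker sum, 5300.4 CPM, whose part in the *Slc40a1* count was not tested.

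*Ireb2* (chr9:54863789-54912530, plus strand) encodes iron regulatory protein 2, a sensor that binds the hairpins printed above. It had 0 and 0 counts in the WT libraries and 9, 1 and 4884 counts in ∆M replicates 1, 2 and 3. The values of the groups did not overlap on the TMM scale, but the ∆M replicate nearest to the WT libraries had a single count, which is under the floor. Set against 3 counts in the WT libraries, the ∆M mean was at least 334-fold higher, a bound that rests on ∆M replicate 3. The log2 fold change was 13.09 ± 7.95 (SE; edgeR, p = 0.0996, adjusted p = 1), and the two-sided exact permutation test gave p = 0.2.

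*Hmox1* (chr8:75093621-75100589, plus strand), the inducible heme oxygenase, had 0 and 0 counts in the WT libraries and 17, 4262 and 0 counts in ∆M replicates 1, 2 and 3. Its TMM values in the ∆M libraries were 1.4, 99.7 and 0 CPM. ∆M replicate 3, the library with the most counts in all, was at 0 like both WT libraries, so the groups overlapped. The ∆M mean was at least 344-fold above the floor of the WT libraries, and this bound rests on ∆M replicate 2. The log2 fold change was 13.14 ± 7.98 (SE; edgeR, p = 0.0998, adjusted p = 1; two-sided exact permutation test, p = 0.4). ∆M replicate 2 was also the library in which the 5 fibroblast markers summed to 531.4 CPM, against at most 2.23 CPM in the others. That sum was 19005 counts of *Dcn*, while *Col1a1*, *Lum* and *Pdgfra* had 0 counts there and *Col1a2* had 5, and its part in the *Hmox1* count was not tested. ∆M replicate 1, the library with the hemoglobin counts, had the 17 *Hmox1* counts given above, and a link between them was not tested.

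*Blvrb* (chr7:27447978-27466144, plus strand) encodes biliverdin reductase B, also known as flavin reductase. It had 0 and 12512 counts in the WT libraries and 4, 5464 and 4904 counts in ∆M replicates 1, 2 and 3. On the TMM scale the WT libraries were at 0 and 363.1 CPM and the ∆M libraries at 0.33, 127.8 and 97.6 CPM. WT replicate 2 was the highest library and WT replicate 1 the lowest, and the ∆M libraries lay between them. The log2 fold change was −1.27 ± 4.42 (SE; edgeR, adjusted p = 1; two-sided exact permutation test, p = 0.7), and without WT replicate 2 it was 14.36.

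**Figure D2:**
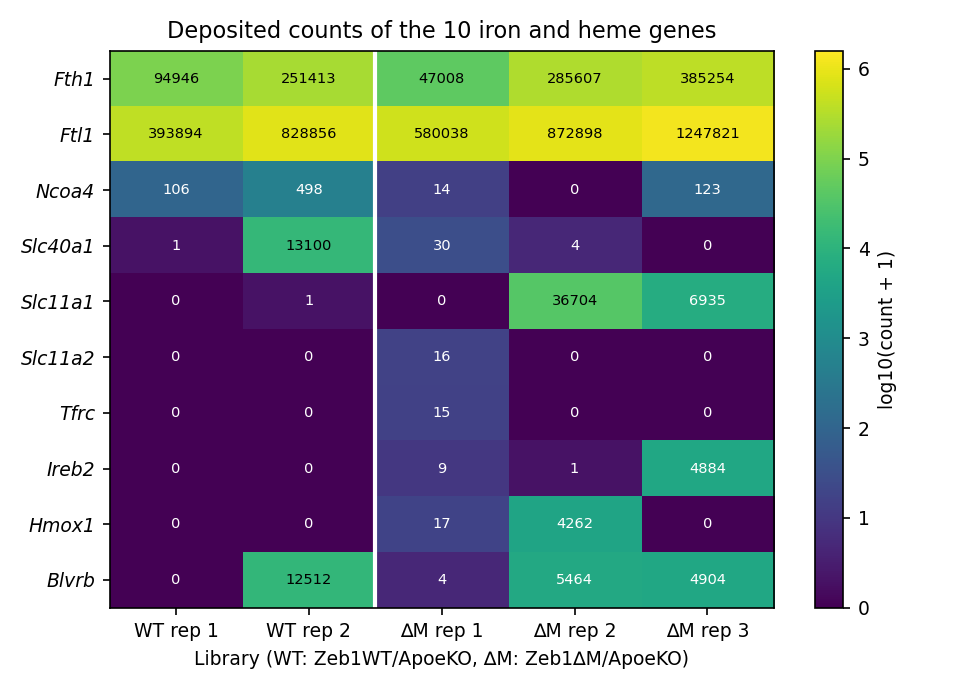
Deposited counts of the 10 genes (rows) in the 5 libraries (columns, the white line divides the genotypes). Each cell prints its count, and colour is log10(count + 1). *Fth1* and *Ftl1* have at least 47008 counts in every library, whereas *Slc40a1*, *Ireb2* and *Hmox1* have at least 4262 counts in 1 library and at most 30 in the others.

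Between genes, levels were set side by side per transcript length, as TPM (counts divided by transcript length and scaled to a common sum), computed from the counts and the length of each principal transcript. The mean over the 5 libraries was 36081.0 ± 6475.0 TPM for *Ftl1* and 6132.7 ± 3030.0 TPM for *Fth1* (SD, n = 5). *Ftl1* lay above *Fth1* in all 5 libraries. It ranked first of all genes in WT replicate 2 and in ∆M replicates 2 and 3, and 3rd in WT replicate 1 and ∆M replicate 1. *Fth1* ranked 34 and 9 in the WT libraries and 147, 15 and 12 in the ∆M libraries. Per length, the *Fth1* to *Ftl1* ratio was 0.156 and 0.197 in the WT libraries and 0.0525, 0.212 and 0.2 in the ∆M libraries. Below ferritin, the means were 198.1 ± 253.2 TPM for *Blvrb*, 129.9 ± 248.5 for *Slc11a1*, 39.5 ± 88 for *Slc40a1*, 23.1 ± 51.4 for *Hmox1*, 5.29 ± 11.8 for *Ireb2* and 1.83 ± 2.55 for *Ncoa4* (TPM, SD, n = 5). Each of these SDs exceeded its mean, so neighbours in this order did not differ beyond their spread. *Slc11a2* and *Tfrc* had the lowest means, 0.0368 and 0.0312 TPM, both from ∆M replicate 1 alone.

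Of the 10 genes, 8 passed the filter and were tested with all 7905 genes in edgeR, and 0 of 8 were called at an adjusted p under 0.05, beside 0 of 7905 genes (0% called). At an unadjusted p under 0.05 there were 0 of the 8 and 86 of all genes. The fit placed 5 of the 8 higher and 3 lower in Zeb1∆M/ApoeKO, with a median log2 fold change of 0.438, and the median over all tested genes was 0.782. Among those fitted higher, *Slc11a1*, *Ireb2* and *Hmox1* passed the filter through ∆M libraries alone, so the filter largely fixed their direction. That median of all genes was 0.129 with total counts and 1.24 with the size factors of DESeq2 (RLE), so the centre of the scale moved with the normalization. Standard errors, derived here from each fold change and its F statistic, ran from 1.24 for *Ftl1* to 7.98 for *Hmox1*. The log2 fold change was 0.70 ± 1.24 (SE) for *Ftl1* and 0.18 ± 1.82 (SE) for *Fth1*, both smaller than their standard errors. For *Ftl1* it was 0.14 with total counts and 1.44 with RLE factors. DESeq2 with default options called 2 of the 7 members it gave an adjusted p, beside 790 of 6519 genes (12.1% called). These were *Hmox1*, with a log2 fold change of 24.93 (adjusted p = 3.91e-07), and *Slc11a1*, with 14.51 (adjusted p = 0.00334). With both WT libraries at 0 counts, the size of the *Hmox1* fold change cannot be estimated. Its call rests on ∆M replicate 2, which held 99.6% of its counts, while ∆M replicate 3 was at 0. For *Ireb2* DESeq2 gave no adjusted p.

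**Figure D3:**
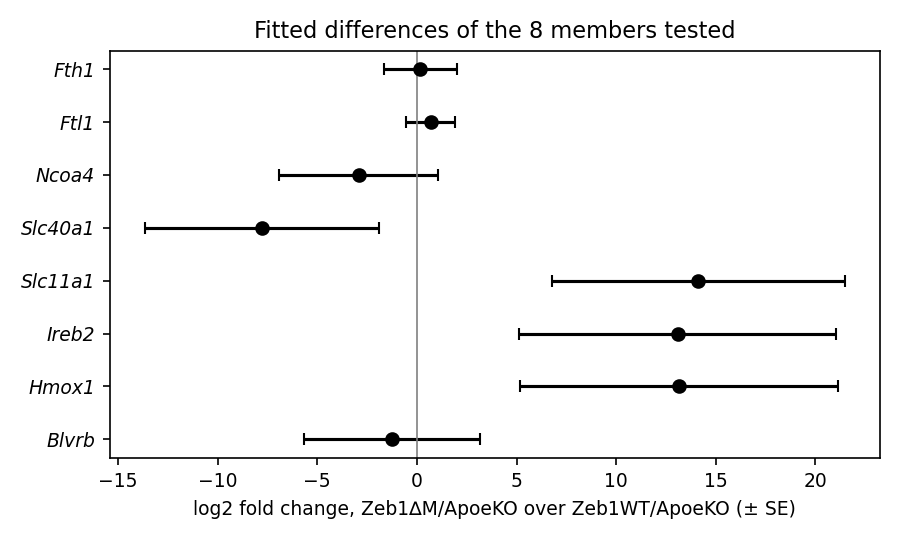
Fitted log2 fold changes, Zeb1∆M/ApoeKO over Zeb1WT/ApoeKO, of the 8 genes tested by edgeR, as points with standard errors derived from the F statistic (n = 2 and 3 libraries). The ferritin genes lie near 0 with the shortest bars, *Slc11a1*, *Ireb2* and *Hmox1* lie above 13 with bars of more than 7 on each side, and no gene had an adjusted p under 0.05.

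All libraries of one genotype lay above all of the other on the TMM scale for 2 of the 8 tested members, *Ncoa4* (higher in WT) and *Ireb2* (higher in ∆M), beside 887 of 7905 tested genes (11.2%). Without ∆M replicate 1 the count was 3 of 8, *Ncoa4*, *Slc11a1* and *Ireb2*, beside 24.2% of the 7905 genes. Without WT replicate 2 it was 5 of 8, *Fth1*, *Ftl1*, *Ncoa4*, *Ireb2* and *Blvrb*, beside 29.5%. Without WT replicate 1 it was 4 of 8, *Ncoa4*, *Slc40a1*, *Ireb2* and *Blvrb*, beside 39.4%. It was 3 of 8 without ∆M replicate 2 (*Ftl1*, *Ncoa4* and *Ireb2*, beside 22.5%) and without ∆M replicate 3 (*Ncoa4*, *Ireb2* and *Hmox1*, beside 20.5%). The share of all genes thus also rose with each library left out.

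Several members were counted almost wholly in 1 library. Of the 7 members with at least 1000 counts in all libraries together, 3 had at least 99% of them in a single library: *Slc40a1* had 99.7% in WT replicate 2, *Ireb2* had 99.8% in ∆M replicate 3 and *Hmox1* had 99.6% in ∆M replicate 2. Among all genes of that depth, 1804 of 5832 (30.9%) were as concentrated. Of the 21705 genes that passed 3 counts somewhere, 52% passed 3 counts in 1 library only and 5% in all 5. Among the members, *Tfrc* and *Slc11a2* did so in 1 library, and *Fth1* and *Ftl1* in all 5.

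By likeness of profile over the 5 libraries (root mean square difference in centred log2 CPM, 7904 genes compared), the gene nearest to *Ftl1* was its copy *Ftl1-ps1* (0.0945), followed by *Pfn1* (0.113) and the *Ftl1* pseudogene *Gm15590* (0.159). *Pfn1* had 42152 and 82380 counts in the WT libraries and 61807, 83469 and 107934 counts in the ∆M libraries. The genes nearest to *Fth1* were 3 processed pseudogenes with at most 42 counts per library, *Gm5915* (0.147), *Gm6767* (0.349) and *Gm6210* (0.356), none of which aligned to *Fth1*. Those nearest to *Hmox1* were *Diaph2* (0.121), *9930111J21Rik2* (0.139) and *Traf7* (0.148), which had 3434, 3466 and 3734 counts in ∆M replicate 2, 13 to 16 in ∆M replicate 1 and 0 in the other 3 libraries. With 5 libraries and a profile carried by 1 of them, such likeness is a description only.

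The wider pathway was read from 6 lists of 57 further genes, of which 32 were tested by edgeR. None was called at an adjusted p under 0.05, and 1 had an unadjusted p under 0.05. DESeq2 called 2 of the 22 it gave an adjusted p, *Flvcr1* and *Alad*, the latter not tested by edgeR, beside 12.1% of all genes. Of the 32, 18 were fitted higher and 14 lower in Zeb1∆M/ApoeKO, with a median log2 fold change of 0.676 beside 0.782 for all genes. Genes that passed the filter through ∆M libraries alone, *Flvcr1* among them, could hardly be fitted lower. In 8 of the 57 genes no library exceeded 3 counts, and 4 exceeded it in all 5 libraries. For 2 of the 32, *Bach1* and *Flvcr1*, the groups did not overlap on the TMM scale, beside 11.2% of all tested genes. *Bach1*, a repressor of *Hmox1* that heme releases from DNA, had 1845 and 3315 counts in the WT libraries and 13, 2279 and 5 in the ∆M libraries, values that overlap before scaling. *Flvcr1*, a heme exporter, had 0 and 0 counts in the WT libraries and 1, 489 and 929 in the ∆M libraries.

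In heme transport and breakdown (9 genes), all 5 tested genes were fitted higher in Zeb1∆M/ApoeKO, with a median log2 fold change of 5.98, and none was called. *Flvcr1* and *Abcg2* had 0 counts in both WT libraries and passed the filter through ∆M libraries alone. They could therefore only be fitted higher. *Blvra*, biliverdin reductase A, had 0 and 6255 counts in the WT libraries and 198595, 120 and 38488 counts in ∆M replicates 1, 2 and 3. Its log2 fold change was 5.98 ± 2.76 (SE), and it was the 1 gene of the lists with an unadjusted p under 0.05 in edgeR, with an adjusted p of 1. The library with the highest *Blvra* count was again the one with hemoglobin transcripts. Without it the log2 fold change was 2.01 ± 3.70 (SE), and the unadjusted p was no longer under 0.05, nor was it with RLE factors, total counts, no filter, the replicate block or without WT replicate 1. *Hmox2*, the constitutive heme oxygenase, had 0 and 3175 counts against 0, 1117 and 11598, and *Pgrmc1*, a heme-binding membrane protein, had 4155 and 0 against 4, 19965 and 13196.

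In iron sensing and transcriptional control (7 genes), all 5 tested genes were fitted lower in Zeb1∆M/ApoeKO, with a median log2 fold change of −4.9, and none was called. *Nfe2l2*, the NRF2 activator of ferritin and *Hmox1* genes, had 37618 and 1620 counts in the WT libraries and 10, 16 and 4781 in the ∆M libraries. *Fbxl5*, which marks iron regulatory protein 2 for degradation, had 1 and 23402 counts against 19, 0 and 0. *Aco1*, which encodes iron regulatory protein 1, had 0 and 8530 counts against 1, 0 and 0, and was not tested. In *Fbxl5* and *Aco1* the WT side rested on WT replicate 2 alone. So it did in *Hif1a*, which carries the median, with 0 and 658 counts against 10, 6 and 0, and in *Keap1*, with 3 and 2013 against 20, 12 and 3.

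In iron uptake and trafficking (12 genes), 3 of 8 tested genes were fitted higher and 5 lower, with a median of −0.155. *Trf*, transferrin itself, had 0 and 74250 counts in the WT libraries and 6, 29477 and 91393 in the ∆M libraries. *Hfe*, a partner of the transferrin receptor, had 0 and 25810 counts against 44, 13497 and 34606. *Mcoln1*, an iron-permeable channel of the lysosome, had 9 and 11356 counts against 43, 18859 and 14. In *Trf* and *Hfe*, WT replicate 1 was at 0 and ∆M replicate 1 was at 6 and 44 counts, while the other 3 libraries had at least 13497. Iron delivery and export (7 genes) had 2 tested genes, 1 fitted in each direction. *Pcbp1*, a chaperone that loads ferritin with iron, had 17820 and 3129 counts against 52, 13663 and 2700, and its relative *Pcbp2* had 0 and 1584 against 0, 8515 and 534. The ferroxidase *Cp* had 253 counts in ∆M replicate 3 and at most 2 elsewhere, and *Hamp* (hepcidin), *Hamp2* and *Ftmt* (mitochondrial ferritin) had 0 counts in every library.

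In heme synthesis (12 genes), 3 of 4 tested genes were fitted higher and 1 lower, with a median of 2.38. *Abcb10*, a mitochondrial transporter that erythroid cells use, had 25022 counts in ∆M replicate 1 and 0 in the other 4 libraries. *Alas1*, the first enzyme of heme synthesis outside red cells, had 0 and 1 count in the WT libraries and 10, 13631 and 0 in the ∆M libraries, and *Tmem14c*, a porphyrin transporter, had 16234 and 3920 against 0, 382 and 10510. In mitochondrial iron and iron-sulfur clusters (10 genes), 6 of 8 tested genes were fitted higher and 2 lower, with a median of 2.87. The cluster scaffold *Iscu* had 819 and 40 counts against 0, 6052 and 34368. *Isca2* had 4 and 4597 against 0, 7970 and 8544, and *Glrx5* had 5410 counts in ∆M replicate 3 and at most 2 elsewhere. No list had a gene with an adjusted p under 0.05 in edgeR.

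**Figure D4:**
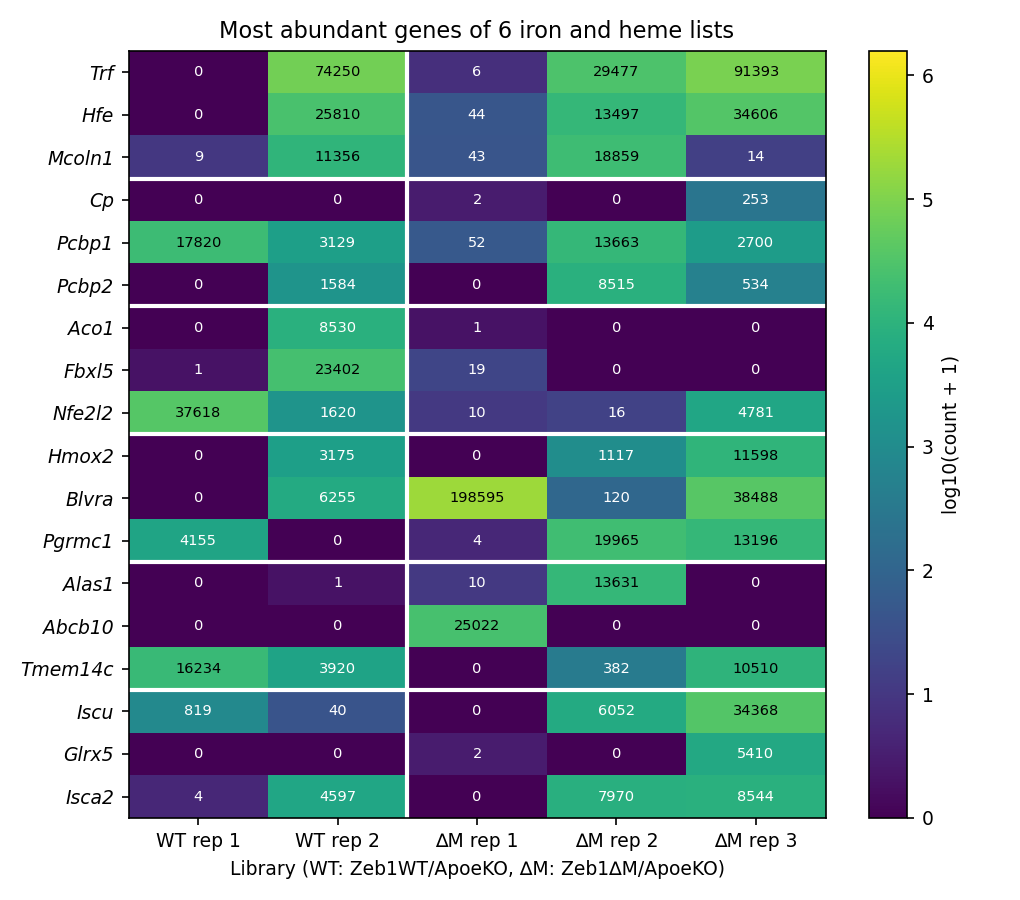
Deposited counts of the 3 genes with the highest mean CPM in each of the 6 pathway lists (rows, white lines divide the lists) in the 5 libraries (columns). Each cell prints its count, and colour is log10(count + 1). *Pcbp1* and *Nfe2l2* exceed 3 counts in every library shown, as does *Mcoln1*, while *Abcb10* is counted in ∆M replicate 1 alone and *Glrx5* and *Cp* almost wholly in ∆M replicate 3.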

How the data were processed

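The authors mapped reads of SMART-Seq v4 libraries to GRCm38 with STAR (2.5.3a in the submitters' processing notes) and quantified genes with RSEM (1.3.0) on GENCODE mouse version 25. For differential expression they used DESeq2 with its default options, which is an alternative setting here. The deposited values are unnormalized expected counts, written as whole numbers, for 55487 genes. The submitters' text speaks of triplicates, and 2 Zeb1WT/ApoeKO libraries were analysed here. Libraries were grouped by genotype label.

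Counts were tested with edgeR 4.0.16 in R 4.3.3 (TMM, filterByExpr with a minimum count of 10, quasi-likelihood test, Benjamini-Hochberg adjustment over 7905 genes, adjusted p under 0.05 called). The common dispersion was 6.44. An SE of an edgeR log2 fold change was its absolute value divided by the square root of the F statistic. Such an SE restates the test and is not a separate estimate of spread. Where all WT counts were 0, the size of the log2 fold change depends on the small count that the fit adds. CPM used total or TMM library sizes, as stated. The exact permutation test took the difference in mean log2(CPM + 0.1) over the 10 assignments of 5 libraries to groups of 2 and 3. A fold against WT libraries at 0 was set against 3 counts in each, and that of *Slc11a1* against its WT count over both libraries pooled. The script was tested on simulated data.

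The named genes were the 10 members, *Zeb1*, *Lyz2* and *Apoe*, any pathway gene called and otherwise the 3 highest in each list, ferritin relatives over 3 counts, the 3 genes most like *Fth1*, *Ftl1* and *Hmox1*, and genes overlapping members. *Abcg2*, *Bach1*, *Flvcr1*, *Alad*, *Hif1a*, *Keap1*, *Hamp*, *Hamp2*, *Ftmt*, *Malat1* and marker genes named singly were chosen after their values were seen. The members and lists were chosen with earlier results of these data known.

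Coordinates and hairpins come from GENCODE M21 (GRCm38). With the version number 54349 identifiers were found there, all members included, and 55141 without it. Similar rows were those whose transcripts aligned at 80% identity or more over at least 200 bases. Alternatives were DESeq2 1.42.0, RLE factors, total counts, other filters, a replicate block, ferritin copies added (by name, and by alignment, the latter chosen after seeing the data) and each library left out. Python 3.11.15, scipy 1.17.1, pandas 2.3.3 and matplotlib 3.10.9 were used.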

Additional observations from a re-analysis of the deposited data

How the results depend on the processing

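In every edgeR setting 0 genes, 0 members and 0 pathway genes were called at an adjusted p under 0.05, with 7 to 173 genes at an unadjusted p under 0.05. DESeq2 called 790 genes, 448 of them higher in Zeb1∆M/ApoeKO, with 2 members (*Hmox1* at 24.93 and *Slc11a1* at 14.51) and 2 pathway genes, *Flvcr1* and *Alad*. The *Hmox1* value has no WT count behind it and rests on ∆M replicate 2. The direction of *Fth1* turned with total counts (−0.05) and with at least 10 counts in every library (−0.16), a filter that only *Fth1* and *Ftl1* of the 10 members passed. With the replicate block *Blvrb* turned to 1.72, *Ncoa4* moved to −6.24, *Ireb2* to 5.52 and *Slc40a1* to −3.26. Labels 1 and 2 occur in both genotypes, but the differences between them correlated at 0.18 over only 2 shared numbers, so no pairing was taken. The block gave 0 calls and 7 genes at an unadjusted p under 0.05, against 86 without it. Leaving out each library in turn gave log2 fold changes of −0.23 to 0.73 for *Fth1*, −9.09 to 3.83 for *Slc40a1* (4 fits, as it failed the filter without ∆M replicate 1) and −2.16 to 14.36 for *Blvrb*. *Fth1* reversed without WT replicate 1, and *Slc40a1* and *Blvrb* without WT replicate 2. The cause was not tested. *Ftl1* (0.07 to 0.99) and *Ncoa4* (−3.76 to −1.82) kept their direction in all 5 fits. *Slc11a1* (13.42 to 16.50), *Ireb2* (13.17 to 13.63) and *Hmox1* (13.18 to 13.50) had 3 fits each. They failed the filter without ∆M replicate 2 or 3 (*Slc11a1*), 1 or 3 (*Ireb2*) and 1 or 2 (*Hmox1*), so these ranges say nothing of stability. A fit without 1 WT library assumes that the remaining one varies like the ∆M libraries. Members whose groups did not overlap numbered 2 (11.2% of all genes), and 3 to 5 with 1 library left out (20.5% to 39.4%). Adding ferritin copies gave 0.71 for *Ftl1* and 0.18 for *Fth1*.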
